A study of Mus musculus with 16 samples.

Results

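The Ankrd13c locus is a run of 5 neighbouring genes on mouse chromosome 3: Cth, the long non-coding RNA (lncRNA) 1810013D15Rik, Ankrd13c, Srsf11 and Lrrc40. They are 5 of the 55335 genes counted in the series and were read by their symbols. They were chosen by their position around Ankrd13c and by the difference between cells lacking Batf3 and wild-type cells, in which Ankrd13c and 1810013D15Rik stood out. The question put to them was whether that rise is limited to Ankrd13c and 1810013D15Rik. The genotype differences of the 5 genes are therefore given as a description, with no p-value, while their changes with time in culture, which the choice did not use, were tested.

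The libraries were poly-A RNA from CD8 T cells enriched from the spleens of C57BL/6 mice that were wild type or carried no functional Batf3 (Batf3-/-, ko). Their reads were counted per gene. Batf3 encodes a basic leucine zipper factor of the AP-1 group. All 4 groups received the same stimulation: plate-bound antibodies to CD3 and CD28 at 1 µg/ml each, in medium with the cytokine IL-15 at 50 ng/ml. They differed in genotype and in time in culture, 48 h or 72 h, and held 4 libraries each, 16 in all, made from 100 ng of RNA each. The series text describes the 4 libraries of a group as technical replicates and gives no number or age of animals. The spread between libraries, and every p-value below, may therefore be technical, and genotype and animal cannot be told apart.

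ANKRD13C is a protein of the endoplasmic reticulum membrane with ankyrin repeats, described as a chaperone that controls the maturation of some G protein-coupled receptors. Its relatives ANKRD13A, ANKRD13B and ANKRD13D bind ubiquitin and act in the sorting of internalised receptors. Cth encodes cystathionine gamma-lyase, which releases cysteine from cystathionine at the end of the transsulfuration pathway and so feeds glutathione synthesis, on which proliferating T cells draw. Srsf11 encodes a splicing regulator rich in serine and arginine (an SR protein), and Lrrc40 a protein of leucine-rich repeats whose function is little known. An lncRNA is a transcript with no known protein product, and many are transcribed away from the promoter of a coding gene on the opposite strand.

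In the GENCODE M21 annotation of GRCm38, the 5 genes lie on chromosome 3 between 157894248 and 158068487 without overlapping each other. Cth (ENSMUSG00000028179, 157894248 to 157925077) is on the minus strand. 1810013D15Rik (ENSMUSG00000028177, 157925220 to 157938355) is on the plus strand, has 4 annotated transcripts and begins 142 bp from the start of Cth, so these 2 genes are head to head. Ankrd13c (ENSMUSG00000039988, 157947239 to 158008034) is on the plus strand and begins 8883 bp beyond the end of the lncRNA. Srsf11 (ENSMUSG00000055436, 158010473 to 158036639) is on the minus strand, and its end lies 2438 bp from the end of Ankrd13c. Lrrc40 (ENSMUSG00000063052, 158036662 to 158068487) is on the plus strand and begins 22 bp from the start of Srsf11, so the locus holds a second head-to-head pair.

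The DNA at these starts is shown because the genes of each head-to-head pair share it and because Ankrd13c carries the largest fold difference among the coding genes. The sequences come from the RefSeq promoter table (GRCm38.p6), are written 5′ to 3′ on the plus strand, and lie at chr3:157925078-157925219, chr3:157946750-157946999 and chr3:158036640-158036661 in the order given. Capitals mark matches to a CCAAT box (CCAAT, or ATTGG on the other strand) in the first and to the cyclic AMP response element (TGACGTCA) in the second.
between Cth and 1810013D15Rik: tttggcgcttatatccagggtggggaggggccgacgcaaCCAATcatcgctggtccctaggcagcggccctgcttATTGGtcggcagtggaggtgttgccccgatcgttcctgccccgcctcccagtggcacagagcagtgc
upstream of Ankrd13c: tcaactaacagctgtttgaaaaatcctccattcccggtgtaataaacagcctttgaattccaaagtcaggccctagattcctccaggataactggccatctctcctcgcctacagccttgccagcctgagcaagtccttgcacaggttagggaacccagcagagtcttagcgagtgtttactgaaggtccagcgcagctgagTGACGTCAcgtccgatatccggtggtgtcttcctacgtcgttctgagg
between Srsf11 and Lrrc40: gtgaggcggaaggggcggggtt
The RefSeq start of Ankrd13c, 157947000, is 239 bp before the GENCODE start.

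Promoter windows, 250 bases before to 50 after a RefSeq start, were found for 4 of the 5 genes, 6 windows in all. They were searched on both strands for 4 motifs. The AP-1 site TGANTCA is a kind of site that BATF proteins bind with JUN partners, though not the only pattern possible for them. It had 0 matches in the 6 windows and was present in 7.81% of all 32851 windows of this length. TGACGTCA, which the AP-1 pattern as written does not match, was found in the Ankrd13c window and in 1.79% of all windows. The first 1810013D15Rik window held 2 matches to the E-box CACGTG (7.15% of all windows have at least 1) and both CCAAT boxes printed above (37.4% of all windows have at least 1). A match is a run of letters, not a measured binding site, and 0 matches say nothing of the factor.

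Library totals ran from 29375818 to 39241169 counts, and levels are given as CPM, counts scaled to a common library total, and where 4 values of a group are listed they stand in replicate order. A count of 0 allows up to 3 counts, which is 0.0765 to 0.102 CPM, and this limit covers counting error only. Batf3, on chromosome 1, stood at 80.7 ± 5.86 CPM (SD, n = 4) in the wild-type libraries of 48 h and 30.9 ± 2.65 CPM (SD, n = 4) in those of 72 h. The ko libraries held 2 to 7 Batf3 counts at 48 h and 0 to 11 at 72 h. The 5 CD8 T cell markers summed to 1120 to 1199 CPM at 48 h and 1548 to 1659 CPM at 72 h, and Cd4 was at most 0.896 CPM. The sum of the 2 NK cell markers, Ncr1 and Klrb1c, was 0.812 to 1.14 CPM in wild-type libraries at 48 h. In ko libraries at 48 h it was 1.79 to 2.37 CPM. At 72 h it was 3.88 to 5.68 CPM in wild-type and 6.09 to 7.71 CPM in ko libraries. Most of it was Klrb1c. Ncr1 averaged 0.210 CPM in wild-type and 0.335 in ko libraries at 48 h, and 0.223 and 0.252 at 72 h. Its libraries overlapped between the genotypes at both times. The part of these markers in the genotype differences was not tested. The B cell, myeloid and erythroid marker lists summed to at most 9.77, 1.69 and 0.384 CPM, and the myeloid genes Adgre1 and Clec9a had 0 counts in every library. The libraries farthest from their groups were replicate 4 of ko 48 h and replicate 4 of wild-type 72 h, with a root mean square deviation from the group mean of 0.175 and 0.163 on the log2 scale against 0.0819 to 0.122 in the other 14.

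The rise in ko cells was not limited to Ankrd13c and 1810013D15Rik. At both times every ko library was above every wild-type library for 4 of the 5 genes: 1810013D15Rik, Ankrd13c, Lrrc40 and Srsf11. Cth, on the far side of the lncRNA, overlapped between the genotypes at both times. Over all 15197 tested genes, every ko library was above every wild-type library in 5.69% at 48 h, in 8.34% at 72 h and in 2.12% at both times; as these contrasts chose the locus, nothing is read from the comparison of the shares. In bulk RNA, more cells expressing a gene and more RNA per cell cannot be told apart.

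**Figure D1:**
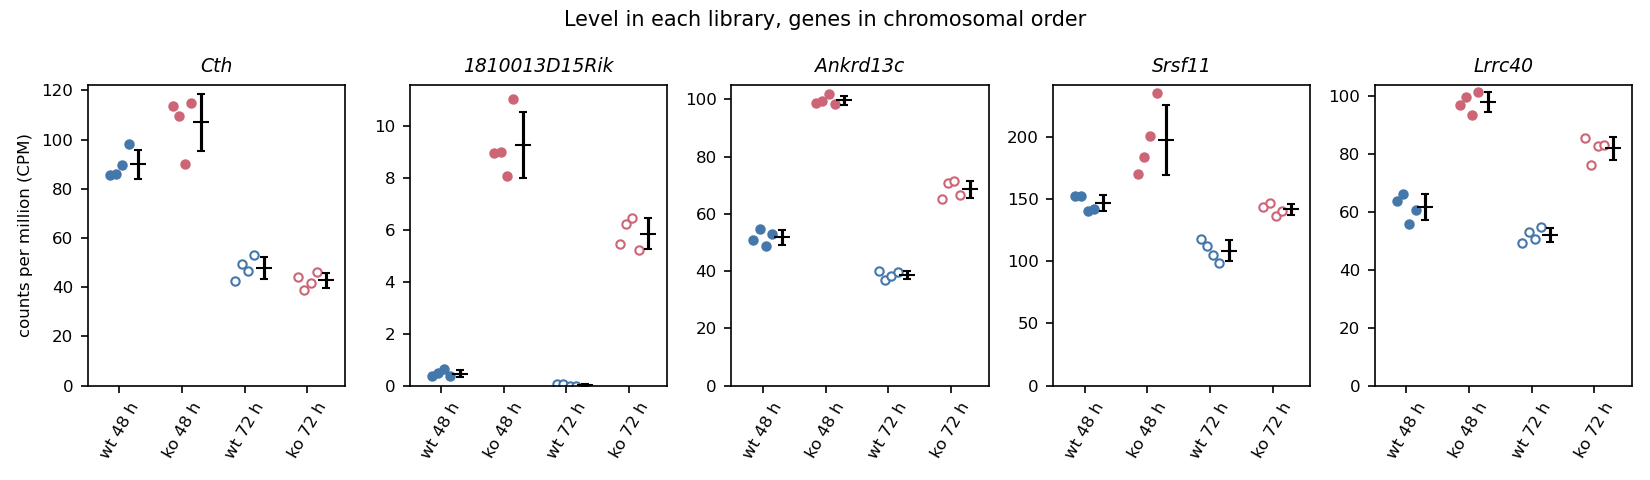
Level of each gene of the locus in every library, in chromosomal order from left to right. The vertical axis is CPM from 0 with its own scale in each panel, points are libraries (blue wild type, red ko, filled 48 h, open 72 h), and bars are the mean ± SD of 4 libraries. Cth is the gene whose wild-type and ko points overlap at both times.

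1810013D15Rik, the lncRNA, was near the detection limit in wild-type cells and readily counted in ko cells. At 48 h the wild-type libraries held 13, 16, 25 and 14 reads of it (0.354, 0.485, 0.655 and 0.357 CPM) and the ko libraries 306, 312, 314 and 350 (8.95, 9.0, 8.07 and 11.04 CPM). At 72 h the wild-type libraries held 2, 2, 0 and 0 reads and the ko libraries 188, 216, 194 and 173 (5.47, 6.23, 6.46 and 5.21 CPM). The lowest ko library was thus far above the highest wild-type library at each time, and the wild-type values at 72 h lay under the limit that a count of 0 allows. Summed over the 4 libraries of a group and scaled by the totals, the ko level was 19.9 times the wild-type level at 48 h, with an exact 95% counting interval of 15.6 to 25.8. At 72 h the ratio was 185, but on 4 wild-type reads in all, with an interval of 72.0 to 681. Both intervals pool the reads of a group and cover counting error only, not the spread between libraries. The fitted log2 fold change of 1810013D15Rik was 4.35 (SE 0.21) at 48 h. The fitted value at 72 h, 7.50 (SE 0.33), rests on 4 wild-type reads and on the small count that the fit adds to the libraries, and is not a bound.

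Ankrd13c, the chaperone gene next along the plus strand, was higher in ko cells at both times, by a nearly equal factor in the fit. At 48 h the wild-type libraries had 51.0, 54.7, 48.7 and 52.8 CPM and the ko libraries 98.7, 99.3, 101.9 and 98.5 CPM. At 72 h the wild-type libraries had 39.9, 36.8, 38.2 and 39.6 CPM and the ko libraries 65.2, 70.8, 71.4 and 66.5 CPM. Every ko library at 72 h was thus still above every wild-type library at 48 h. The log2 fold change of Ankrd13c was 0.98 (SE 0.06) at 48 h and 0.95 (SE 0.06) at 72 h. With scaling to library totals it was 0.83 at 72 h. The ratio of mean CPM, ko to wild type, was 1.92 at 48 h and 1.77 at 72 h, and a change between the times was not tested. In CPM the group means ± SD (n = 4) at 48 h were 51.8 ± 2.57 in wild-type and 99.6 ± 1.58 in ko libraries, and this spread may be technical.

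Lrrc40, the leucine-rich repeat gene at the right end, followed the order of Ankrd13c with a smaller fold difference. At 48 h the wild-type libraries had 63.8, 66.2, 56.0 and 60.7 CPM and the ko libraries 97.1, 99.7, 93.7 and 101.5 CPM. At 72 h the wild-type libraries had 49.4, 53.1, 50.5 and 54.9 CPM and the ko libraries 85.7, 76.2, 82.9 and 83.2 CPM. As for Ankrd13c, the ko libraries at 72 h lay above the wild-type libraries at 48 h. The log2 fold change of Lrrc40 was 0.70 (SE 0.06) at 48 h and 0.78 (SE 0.07) at 72 h.

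Srsf11, the SR protein gene that shares its 22 bp start region with Lrrc40, had a smaller fold difference still, although in CPM its mean difference was 50.7 at 48 h and 33.3 at 72 h, against 47.8 and 29.9 for Ankrd13c and 36.3 and 30.0 for Lrrc40. At 48 h the wild-type libraries had 152.1, 152.4, 140.7 and 141.8 CPM and the ko libraries 170.0, 184.0, 200.5 and 235.3 CPM. At 72 h the wild-type libraries had 117.5, 112.3, 105.3 and 98.8 CPM and the ko libraries 143.4, 146.9, 136.5 and 140.4 CPM. The ko libraries at 48 h were the most spread group of Srsf11, and the highest of them, replicate 4, is one that stands apart from its group over all genes. The log2 fold change of Srsf11 was 0.46 (SE 0.07) at 48 h and 0.51 (SE 0.07) at 72 h. Without both libraries that stand apart it was 0.39 and 0.48. Without them the values at the 2 times were 1.00 and 0.98 for Ankrd13c, 0.70 and 0.82 for Lrrc40, and 4.27 and 7.14 for 1810013D15Rik.

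Cth, the transsulfuration enzyme gene, had the smallest fold difference between the genotypes in the locus at both times, although it begins next to the lncRNA. At 48 h the wild-type libraries had 85.6, 86.2, 89.7 and 98.3 CPM and the ko libraries 113.5, 109.6, 90.1 and 114.7 CPM. At 72 h the wild-type libraries had 42.4, 49.4, 46.5 and 52.9 CPM and the ko libraries 44.3, 38.9, 41.5 and 46.1 CPM. In 3 of the 4 ko libraries at 48 h Cth was above all wild-type libraries, and replicate 3 fell among them. Its log2 fold change was 0.28 (SE 0.08) at 48 h, with 0.24 to 0.36 in the alternatives run. It was -0.04 (SE 0.09) at 72 h, and the sign at 72 h was not stable. At 72 h it was 0.03 without both libraries that stand apart, 0.03 without replicate 4 of wild-type 72 h and 0.01 without replicate 2 of ko 72 h. Of the head-to-head pairs, the log2 fold changes at 48 h were thus 0.28 and 4.35 for Cth and 1810013D15Rik, and 0.46 and 0.70 for Srsf11 and Lrrc40.

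The order of the 4 groups was the same for 3 of the genes. For Ankrd13c, 1810013D15Rik and Lrrc40 it ran from ko 48 h through ko 72 h and wild-type 48 h to wild-type 72 h, and no neighbouring groups overlapped. For Srsf11 the wild-type libraries at 48 h and the ko libraries at 72 h overlapped. For Cth the order was set by time, with both genotypes at 48 h above both at 72 h and the genotypes overlapping within each time. Whether the genotype difference of a gene of the locus changed between the times was not tested, because both contrasts chose the genes.

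**Figure D2:**
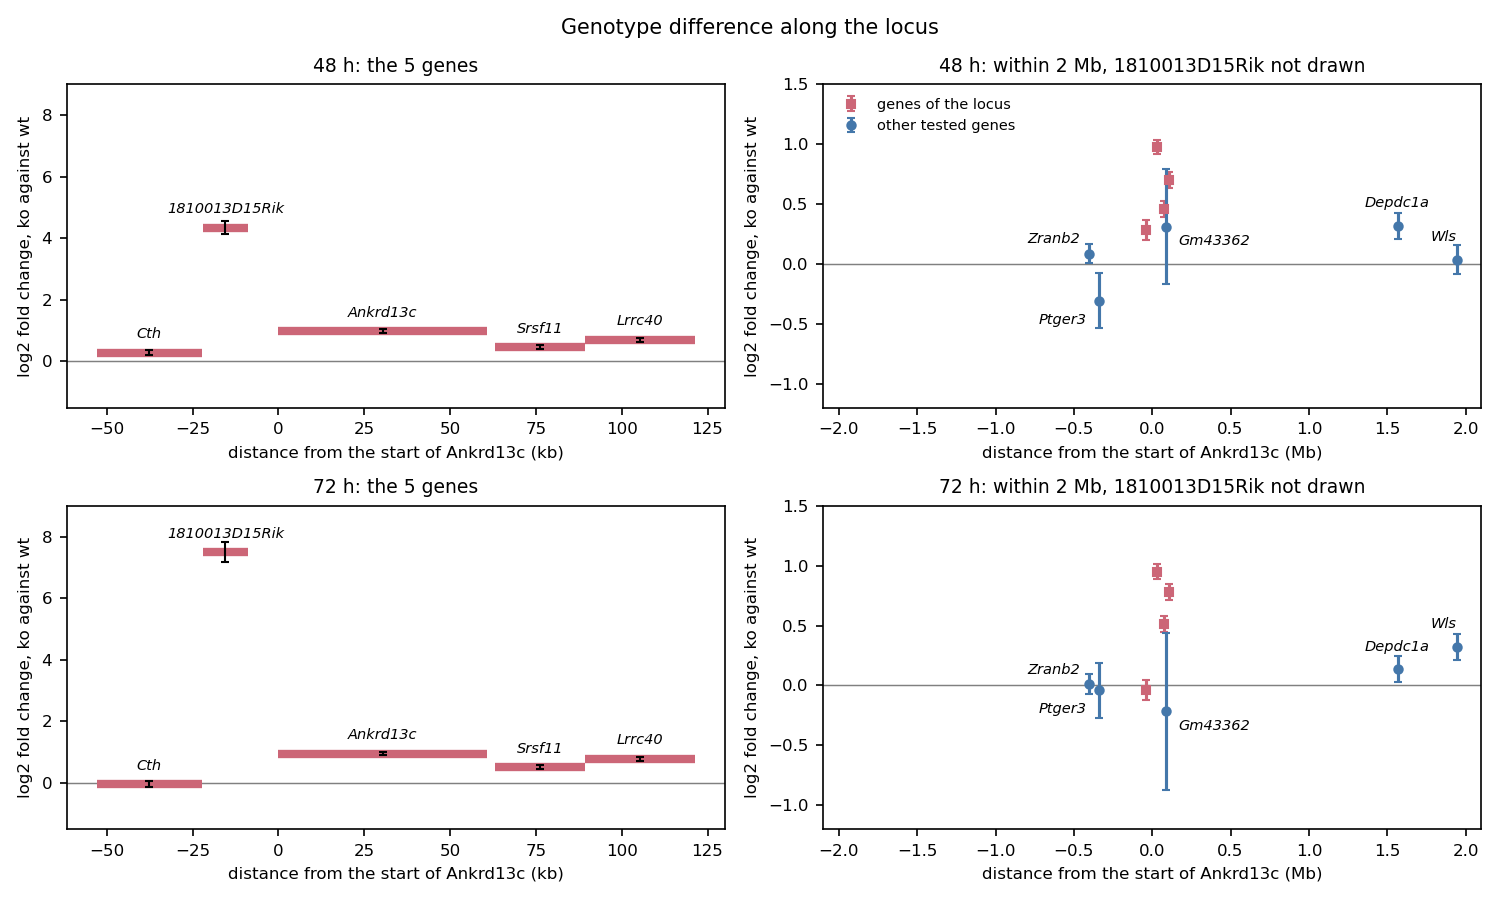
Log2 fold change of ko against wild type by position, with distance from the GENCODE start of Ankrd13c on the horizontal axis (kb left, Mb right). On the left, bars span each gene of the locus and black marks are ± SE; on the right, red squares are 4 of these genes and blue circles the other tested genes, ± SE, with 1810013D15Rik off the scale. Above 0.4 at both times lie Ankrd13c, Lrrc40, Srsf11 and the lncRNA.

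Levels can be compared between the genes per kilobase of annotated exon, though the order of the coding genes depends on the length used. Using the union of all annotated exons, Ankrd13c had 4.50 CPM per kb in wild-type and 8.65 in ko cells at 48 h, while 1810013D15Rik had 0.218 and 4.37. On the same scale at 48 h, wild-type and ko levels were 32.2 and 38.3 for Cth, 17.4 and 23.4 for Srsf11, and 12.9 and 20.5 for Lrrc40. The lncRNA of ko cells thus came nearer to its neighbour Ankrd13c, at 4.37 against 8.65, than the lncRNA of wild-type cells, at 0.218 against 4.50. The exon union of Ankrd13c, 11511 bp, includes retained introns and is long beside its longest coding transcript of 3903 bp. By the longest transcript the ko levels at 48 h were 25.5 CPM per kb for Ankrd13c, 6.39 for 1810013D15Rik, 23.7 for Lrrc40, 58.9 for Cth and 63.6 for Srsf11. Cth was thus above Srsf11 and Lrrc40 above Ankrd13c by the exon union in ko cells at 48 h, and both orders turned by the longest transcript.

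Several short annotated genes lie within these 5, and counting could assign some reads to them. Gm42611 lies within Ankrd13c on the same strand and had 0 to 26 counts per library. Gm43314 within Cth had 0 to 17, Gm43362 within Srsf11 had 0 to 25, and B230334C09Rik, which overlaps Lrrc40 on the opposite strand, had 0 to 6. These counts are small beside those of the 4 coding genes. The sources used here do not give the strand setting of the counting. Reads of 1810013D15Rik and of any unannotated transcript opposite it cannot be told apart.

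Few other genes near the locus could be tested. Within 2 Mb on either side of Ankrd13c, from 155947239 to 160008034, 44 other genes are annotated, 18 had any count and 5 were abundant enough to be tested, 1 of which, Gm43362, lies inside Srsf11 on the same strand. Of these 5, edgeR called 0 at 48 h, where 7.07% of all tested genes were called in either direction at an adjusted p below 0.05, and 1 at 72 h, where the share was 36.4%. At 48 h 1 of the 5 was higher at an unadjusted p below 0.05, and DESeq2 also called 0. Within 1 Mb, 3 genes, Gm43362 among them, were tested and 0 were called at either time.

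Zranb2, which encodes a zinc finger splicing protein and is the nearest well-expressed gene on the Cth side, had 136.8 ± 10.4 CPM (SD, n = 4) in wild-type and 141.6 ± 11 CPM (SD, n = 4) in ko cells at 48 h. Its log2 fold change was 0.09 (SE 0.08; edgeR adjusted p = 0.580) at 48 h and 0.01 (SE 0.08; adjusted p = 0.923) at 72 h. Ptger3, the gene of a prostaglandin E2 receptor, had -0.31 (SE 0.23) and -0.04 (SE 0.23), and Gm43362 had 0.31 (SE 0.48) and -0.21 (SE 0.65), with edgeR adjusted p from 0.479 to 0.913. Both genes were scarce, and the standard errors of Gm43362 are as large as the difference of Srsf11, so a change of that size was not detectable in it. Depdc1a, a gene of dividing cells, was at 0.32 (SE 0.11; edgeR adjusted p = 0.0761) at 48 h and 0.13 (SE 0.11; adjusted p = 0.355) at 72 h. At 48 h Depdc1a passed the threshold without both libraries that stand apart (edgeR adjusted p = 0.00570), with no filter on low counts (0.00886), and when replicate 3 or 4 of ko 48 h, or replicate 4 of wild-type 72 h, was left out (highest 0.0412).

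Wls, which encodes the carrier that brings WNT proteins to the cell surface, was the neighbour called at 72 h. At that time it had 17.1 ± 1.75 CPM (SD, n = 4) in wild-type and 19.6 ± 1.5 CPM (SD, n = 4) in ko cells, a log2 fold change of 0.33 (SE 0.11; edgeR adjusted p = 0.0211), and the libraries overlapped. The call was lost when replicate 3 or 4 of wild-type 72 h, or replicate 1 of ko 72 h, was left out (edgeR adjusted p = 0.0600, 0.0573 and 0.0775), and with scaling to library totals (adjusted p = 0.144). At 48 h Wls was at 0.04 (SE 0.12; edgeR adjusted p = 0.900).

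All 5 genes of the locus were lower at 72 h than at 48 h in both genotypes. In wild-type cells 29.9% of all tested genes were called lower at 72 h and in ko cells 33.6%. For each of the 5, every 72 h library was below every 48 h library in both genotypes, which held for 26.8% of all tested genes in wild-type and 32.8% in ko cells. Neighbouring genes in the same libraries are not independent replicates of this fall.

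Cth fell most among the coding genes, by 0.94 on the log2 scale in wild-type cells (SE 0.08; edgeR adjusted p = 6.56e-10) and by 1.26 in ko cells (SE 0.08; adjusted p = 2.15e-12). Ankrd13c fell by 0.45 in wild-type cells (SE 0.06; edgeR adjusted p = 5.26e-07) and by 0.48 in ko cells (SE 0.06; adjusted p = 1.16e-07). Srsf11 fell by 0.46 (SE 0.07; edgeR adjusted p = 2.69e-06) and by 0.41 (SE 0.07; adjusted p = 1.18e-05). These 3 coding genes, and 1810013D15Rik, kept both calls in each of the 25 alternatives run. Lrrc40 fell least, by 0.27 in wild-type cells (SE 0.07; edgeR adjusted p = 0.000841) and by 0.19 in ko cells (SE 0.06; adjusted p = 0.0108). The ko call of Lrrc40 was lost without ko 72 h replicate 2 (edgeR adjusted p = 0.0514).

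In ko cells, where 1810013D15Rik was well counted, it fell by 0.60 between the 2 times on the log2 scale (SE 0.16; edgeR adjusted p = 0.00161). Its ko reads went from 1282 to 771, a ratio after scaling by the totals of 1.58 with an exact 95% counting interval of 1.44 to 1.73. In wild-type cells the fitted fall was larger, -3.75 (SE 0.50; edgeR adjusted p = 4.53e-07), on 68 reads at 48 h and 4 at 72 h. Scaled by the totals, the wild-type level at 48 h was 14.7 times that at 72 h, with an interval of 5.47 to 55.4. Neither counting interval includes the spread between libraries, which the SE of the fit does. The lncRNA thus fell at a time when Ankrd13c, Cth, Srsf11 and Lrrc40 fell too, in each genotype.

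**Figure D3:**
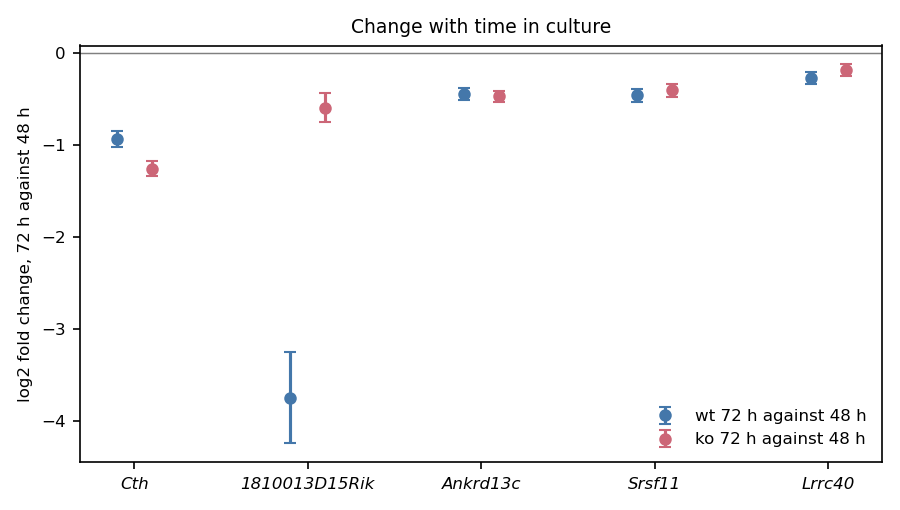
Log2 fold change from 48 h to 72 h for each gene of the locus, in wild-type (blue) and ko (red) cells, with bars of ± SE from the edgeR fit of 16 libraries. All 10 values lie below 0, and the wild-type value of 1810013D15Rik, -3.75, rests on few reads.

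Of the ANKRD13 relatives, which lie on other chromosomes, none was called higher in ko cells. Of all tested genes, edgeR called 7.07% in either direction at 48 h and 36.4% at 72 h. At 48 h it called 0 of the 3 relatives tested (1 was lower at an unadjusted p below 0.05, and DESeq2 called 0). At 72 h it called 1 lower. The gene called was Ankrd13b, which had 36.7 ± 3.28 CPM (SD, n = 4) in wild-type and 25.2 ± 3.16 CPM (SD, n = 4) in ko cells at 72 h, a log2 fold change of -0.41 (SE 0.09; edgeR adjusted p = 0.000620). Ankrd13b at 48 h was at -0.17 (SE 0.08; edgeR adjusted p = 0.224), and passed without ko 48 h replicate 4 (adjusted p = 0.0487). Ankrd13a, the most abundant of the family by CPM, was at -0.14 (SE 0.06; edgeR adjusted p = 0.0594) at 72 h, with every ko library below every wild-type library. It passed without ko 48 h replicate 4 (edgeR adjusted p = 0.0418) or ko 72 h replicate 2 (adjusted p = 0.0486) and in DESeq2. It also passed without both libraries that stand apart (edgeR adjusted p = 0.0496) and with a stricter filter on low counts (adjusted p = 0.0485). With scaling to library totals it was at -0.26 (edgeR adjusted p = 0.000560), where the median of all tested genes was -0.14. Ankrd13d was at 0.01 (SE 0.14; edgeR adjusted p = 0.980) at 48 h, and its adjusted p at 72 h was 0.983.

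Genes of cysteine and glutathione supply, the pathway of Cth, moved in both directions. Of 21 listed, 19 besides Cth were tested, and their median log2 fold change was 0.14 at 48 h and 0.10 at 72 h against 0.01 and -0.02 over all tested genes. At 48 h 2 were higher, Chac1, a glutathione-degrading enzyme of the stress response (0.81, SE 0.10; edgeR adjusted p = 1.49e-05), and Slc3a2, the heavy chain of the cystine transporter (0.30, SE 0.07; adjusted p = 0.0153). Mtr, which returns homocysteine to methionine, was the gene called lower at 48 h (-0.30, SE 0.08; edgeR adjusted p = 0.0203). Over all tested genes, 7.07% were called in either direction at 48 h. The call of Slc3a2 was lost without wild-type 48 h replicate 1 or 2 (edgeR adjusted p = 0.0649 and 0.0527). That of Mtr was lost without wild-type or ko 48 h replicate 1 or 2 (highest edgeR adjusted p = 0.0844).

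At 72 h 6 genes of this list were higher and 3 lower in ko cells, where 36.4% of all tested genes were called in either direction. The 4 largest rises were Ggt1, which cleaves extracellular glutathione (1.67, SE 0.22), Sqor, which oxidises hydrogen sulfide in mitochondria (1.10, SE 0.20), Ethe1, which works after Sqor in that pathway (0.43, SE 0.10), and Mpst, a sulfurtransferase (0.36, SE 0.08), with edgeR adjusted p of at most 0.00171. The 3 falls were Mtr (-0.66, SE 0.08), Slc7a11, the cystine carrier itself (-0.61, SE 0.18), and Gclm, a subunit of the enzyme that starts glutathione synthesis (-0.44, SE 0.10), with edgeR adjusted p of at most 0.0109. Slc7a11 was at 0.32 (SE 0.16) at 48 h, the opposite sign, and its call at 72 h was lost with exon length offsets (edgeR adjusted p = 0.0607). Cth, at -0.04, lay among the members of its pathway that differed little at 72 h.

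None of the other tested SR protein genes was called higher in ko cells at either time. Of the 6 genes of kinases that phosphorylate SR proteins, 4 were called higher and 1 lower at 72 h. Both kinds of gene stood in the same list, so this division was not planned. Over all tested genes, 7.07% were called in either direction at 48 h and 36.4% at 72 h. Of 21 listed, 20 besides Srsf11 were tested, with a median log2 fold change of -0.05 at 48 h and -0.10 at 72 h. At 48 h edgeR called 0 of them (3 were lower and 0 higher at an unadjusted p below 0.05) and DESeq2 called 2 lower. Without ko 48 h replicate 4 edgeR called 3 lower. At 72 h 4 were higher and 7 lower. The 4 higher were all kinases: Clk1 (0.52, SE 0.09), Clk4 (0.39, SE 0.10), Srpk1 (0.25, SE 0.06) and Clk3 (0.19, SE 0.06), with edgeR adjusted p of at most 0.0148. The kinase gene called lower was Clk2 (-0.31, SE 0.10; edgeR adjusted p = 0.0179), named after its value was seen; the call was lost without replicate 2 of wild-type 72 h or replicate 3 of ko 72 h (adjusted p = 0.0548 and 0.0939). The largest falls were the SR protein genes Srsf9 (-0.39, SE 0.07), Srsf2 (-0.39, SE 0.06), Srsf1 (-0.36, SE 0.07) and Srsf4 (-0.33, SE 0.09), with edgeR adjusted p of at most 0.00799. Scaling to library totals moved the median log2 fold change of all tested genes at 72 h from -0.02 to -0.14, and with it 2 of the list were higher and 11 lower, without the calls of Srpk1 and Clk3. The call of Clk3 was also lost without ko 72 h replicate 1 (edgeR adjusted p = 0.0585) and with no filter on low counts (adjusted p = 0.0813).

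**Figure D4:**
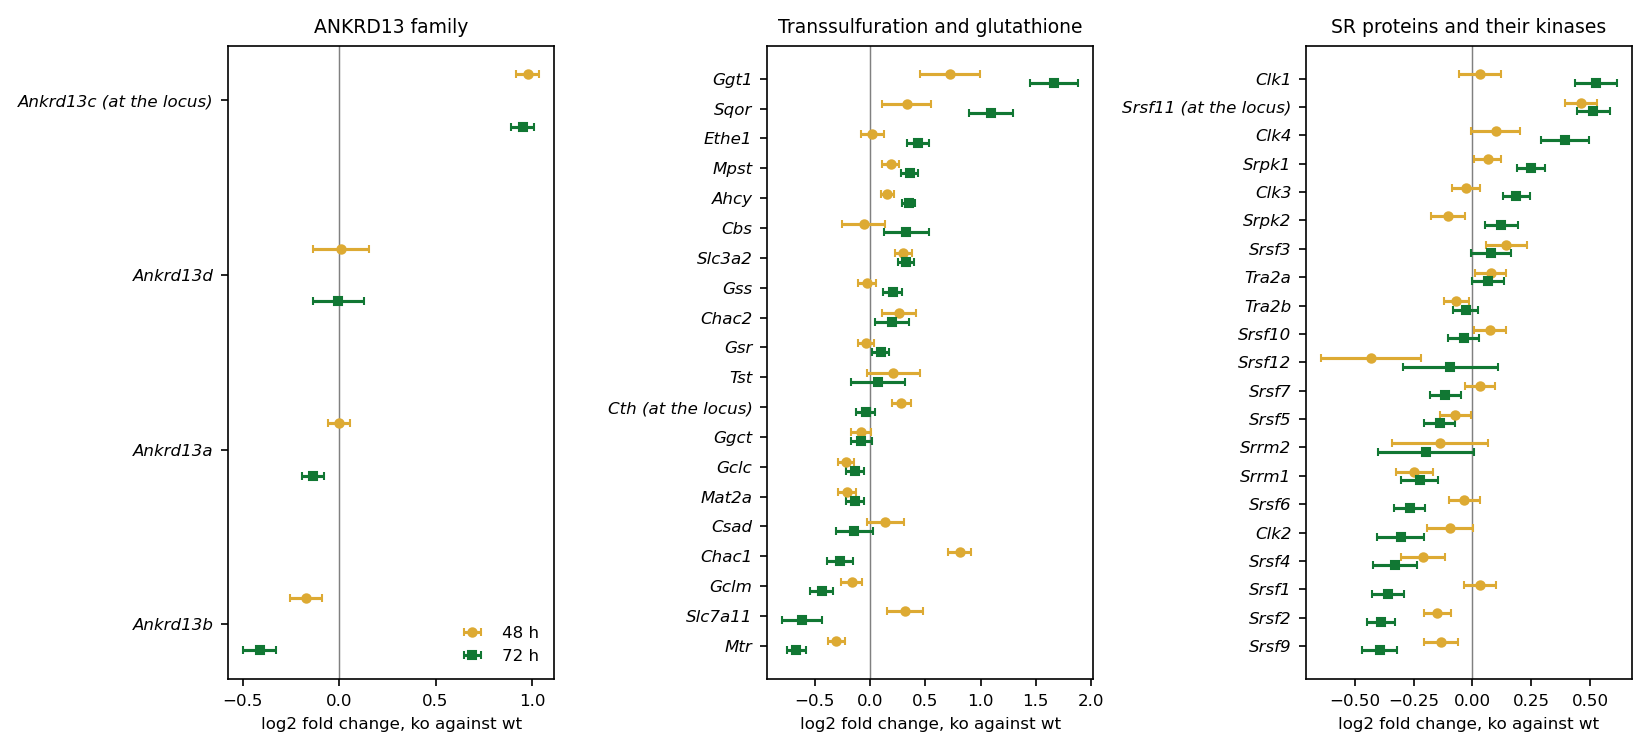
Log2 fold change of ko against wild type for each tested gene of 3 families, at 48 h (yellow circles) and 72 h (green squares), with bars of ± SE from the edgeR fit; each panel has its own horizontal scale. Ankrd13c stands at 0.98 and 0.95 with its 3 relatives at or below 0.01, Cth lies inside the range of its pathway, and Srsf11 is the highest of the SR genes at 48 h and second to Clk1 at 72 h.

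The genes whose profile over the 16 libraries was most like that of Ankrd13c were sought by the root mean square difference of centred log2 CPM, among 9279 tested genes whose average log2 CPM was at least 3. Outside the locus the nearest was mt-Rnr2, the large ribosomal RNA of the mitochondrion (0.214), followed by Gm15446 on chromosome 5 (0.250), Efcab7 on chromosome 4 (0.267), Pla1a on chromosome 16 (0.278) and Gadd45g on chromosome 13 (0.284). Within the locus Lrrc40 was nearer than any of them, at 0.180, and Srsf11 was at 0.267, Cth at 0.549 and 1810013D15Rik at 2.28. None of the 5 outside genes lies on chromosome 3. mt-Rnr2 had 813 CPM in wild-type and 1126 CPM in ko cells at 48 h and 501 and 857 CPM at 72 h. For 1810013D15Rik the nearest profiles among these genes were Cd24a at 2.28, Socs3 at 2.31, Bc1 at 2.34, Serpinb1a at 2.34 and Nupr1 at 2.36. At these distances none was close to it. In ko cells mean Cd24a rose from 31.6 CPM at 48 h to 48.1 CPM at 72 h, while 1810013D15Rik fell from 9.27 to 5.84 CPM. Socs3, Serpinb1a and Nupr1 also rose in ko cells, and Bc1 fell. When genes with an average log2 CPM down to 1 were admitted, Il10 (1.64), Fcgr3 (1.79) and Rpl39l (1.96) were nearer. These distances are descriptions over libraries that share their depth and groups.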

How the data were processed

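The values deposited by the authors are raw read counts, whole numbers for each gene. The submitters' processing notes name STAR 2.7, featureCounts, bcl2fastq 2.2.0 and GRCm38. The annotation release and the handling of multi-mapped reads were not given in the sources used here. Stranded poly-A libraries were made, per the labels' protocols.

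Positions came from GENCODE M21, in which 55154 of the identifiers were found. CPM used library totals. All 16 libraries were fitted with edgeR 4.0.16 (R 4.3.3) after filterByExpr at a minimum of 10 counts and TMM scaling. The test was the two-sided quasi-likelihood F test, with robust dispersion, and p-values were adjusted by Benjamini-Hochberg over 15197 tested genes at a threshold of 0.05. Fold changes are from this fit and need not equal ratios of CPM. The SE was the size of the log2 fold change divided by the root of F. The script was tested on simulated counts. No libraries of a group agreed within sampling noise.

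The genes and lists were chosen with earlier results of these data known. Named were the 5 genes, tested genes within 2 Mb, the ANKRD13 family, up to 4 genes each way from the other lists, and 5 nearest profiles. Alternatives were DESeq2 1.42.0, scaling by median ratios or library totals, other filters, a replicate block, leaving out each library or the 2 that stand apart and, added after seeing the data, exon length offsets.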

Additional observations from a re-analysis of the deposited data

Results flagged for a closer look

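No library of any of the 5 genes of the locus lay far enough from its group to be singled out by Dixon's test at the 95% level. Among the genes of the Cth and SR lists, the effect of ko differed between the times for 4, by an interaction test in edgeR adjusted over all tested genes. Chac1 differed by -1.08 on the log2 scale, 72 h minus 48 h (SE 0.15, adjusted p = 0.000294), having been higher in ko cells at 48 h and at -0.27 at 72 h. Slc7a11 differed by -0.93 (SE 0.25, adjusted p = 0.0258). Srsf1 differed by -0.39 (SE 0.09, adjusted p = 0.0153) and Clk1 by 0.49 (SE 0.13, adjusted p = 0.0253).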

How the results depend on the processing

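The genotype differences of the 5 genes kept their sign in 25 alternatives except Cth at 72 h, which ranged from -0.16 to 0.03. The ranges at 48 h and 72 h were 0.94 to 1.07 and 0.83 to 1.09 for Ankrd13c, 0.66 to 0.74 and 0.66 to 0.83 for Lrrc40, and 0.39 to 0.52 and 0.39 to 0.63 for Srsf11. Leaving out each library gave 302 to 1059 genes higher and 171 to 896 lower at 48 h, against 670 and 405. Without both libraries that stand apart there were 1379 and 1171, and DESeq2 gave 844 lower. Library-size scaling at 72 h gave 1463 higher and 4779 lower, against 2565 and 2961. Within 2 Mb, leaving out a library gave 0 to 1 higher at each time; at 48 h no filter, or leaving out both libraries that stand apart, gave 1; at 72 h library-size scaling, or a window of 1 Mb, gave 0. In the Cth list at 48 h, leaving out a library gave 1 to 2 higher and 0 to 1 lower, and DESeq2 gave 2 lower; at 72 h library-size scaling gave 6 lower. In the SR list at 48 h, leaving out a library gave 0 to 3 lower, median-ratio scaling or no filter 1, DESeq2 2, and leaving out both libraries that stand apart 3 lower and 1 higher; at 72 h library-size scaling gave 2 higher and 11 lower. Among genes whose average log2 CPM was at least 1, 2 of the 5 nearest profiles of Ankrd13c and 1 of those of 1810013D15Rik were shared. Same-numbered libraries did not regularly deviate together (correlations from -0.26 to 0.28). The highest were 0.28 and 0.27, for replicates 1 and 3 of wild-type cells between the times, each the best match of its number. With the replicate number as a block 572 genes rose and 346 fell at 48 h, and all 5 genes of the locus still fell with time. Depth limits 1810013D15Rik in wild-type cells, Ptger3 and Gm43362.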
